A study of Ipomoea batatas with 12 samples.

Results

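Sweetpotato roots labelled as overexpressing MBP3 (MBP3-OE) were compared at 4 months and 20 days of age, with 3 RNA-seq libraries at each age, numbered 2, 3 and 8. The comparison took in every gene whose FPKM (fragments per kilobase of transcript, scaled to library size) averaged 0.5 or more over these 6 libraries, which left 27711 of the 45142 genes of the deposited table. The series holds 12 root libraries in all. The other 6 are MBP3-OE roots at 1 month (3 libraries) and wild-type (WT) roots at 20 days, 1 month and 4 months (1 library each), and they are used here only beside the 2 ages compared. The WT plants were of cultivar Taizhong 6. The sources used here give neither the promoter that drives MBP3 in the MBP3-OE plants nor whether the numbers 2, 3 and 8 mark lines or plants, so every p-value below measures only the spread between these samples.

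A sweetpotato plant first makes thin absorbing roots, some of which thicken into the storage root. Thickening roots are known to build starch in amyloplasts, which are non-green plastids, and to fill with sporamin, a trypsin inhibitor that serves as the main storage protein. Roots that stay thin take up water and minerals through transporters in the outer cell layers, and lignify their vessels.

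The labels were checked first against tissue markers. Sporamin genes took 0.14%, 0.16% and 0.0666% of all counts in 20-day libraries 2, 3 and 8, and 17.8%, 8.68% and 16.7% at 4 months, in the same order. Genes of the photosystems and of light harvesting, which mark green shoot tissue, summed to 164, 322 and 292 FPKM at 20 days and to 5239, 7197 and 10565 FPKM at 4 months. The material is labelled as root, and the part of this second rise in the other results was not tested. MBP3 is annotated as 2 genes, g4107 and g4109, on linkage group 1. Values are given below in the order of libraries 2, 3 and 8. Gene g4107 read 75, 78.4 and 67.3 FPKM at 20 days and 55.8, 67.5 and 121 FPKM at 4 months, and g4109 read 40.8, 40.3 and 36.0 FPKM and then 27.9, 35.8 and 65.9 FPKM. The 2 ages overlapped for both genes, and neither passed the test (log2 fold change 0.40 for each, adjusted p = 0.30 and 0.33, edgeR quasi-likelihood test). WT read 15.3 FPKM of g4107 at 20 days and 83.2 FPKM at 4 months, so that at 4 months the WT level lay within the MBP3-OE range. FPKM values do not separate native from introduced MBP3 transcripts.

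Each library held 39424503 to 55829214 counts. In each of the 6 libraries more genes had a count of 4 (497 to 637) than a count of 1 (102 to 146). The deposited counts may therefore not be single reads, which was not tested. The error of a value was taken from the spread between libraries. That spread was wider in older roots, with a common coefficient of variation of 0.231 at 20 days and 0.496 at 4 months. The 4-month library 2 stood apart from libraries 3 and 8 of its age on the second principal component (114.4 against -93.7 and -66.3, where the component carried 11.5% of the variance). In bulk RNA, fewer cells of a type and less RNA per cell cannot be told apart.

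Age was the main difference between the 6 libraries. The first principal component, which carried 76.6% of the variance, put the 20-day libraries at -170.5 to -167.4 and the 4-month libraries at 113.4 to 245.1. The counts, scaled by TMM, went into the quasi-likelihood test of edgeR. A gene was called where its p, adjusted by Benjamini-Hochberg, lay under 0.05 and its log2 fold change reached 1 in size. At 4 months 4801 genes were called higher (17.3% of those tested) and 4912 were called lower (17.7%). The median log2 fold change was 1.8 among the former and -2.21 among the latter, against 0.01 over all tested genes. Past 8-fold the lower calls outnumbered the higher ones, 1699 to 959. In FPKM the 2 ages did not overlap for 6250 of the 27711 tested genes with 4 months higher and for 10774 with 20 days higher. There was no count at 20 days for 55 of the genes called higher and none at 4 months for 172 of those called lower. Without 4-month library 2 the counts were 4550 and 4988, of which 4232 and 4423 had been called in the same direction with it, and 0 genes changed direction. Of all calls 49.4% were higher by this test. With limma on FPKM, which changes the scaling, the test and the pseudocount together, the median log2 fold change of all genes moved to -0.20 and the higher calls made up 32.3% of all calls (log2(FPKM + 1)), or to -0.27 and 34.6% (log2(FPKM + 0.1)).

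**Figure D1:**
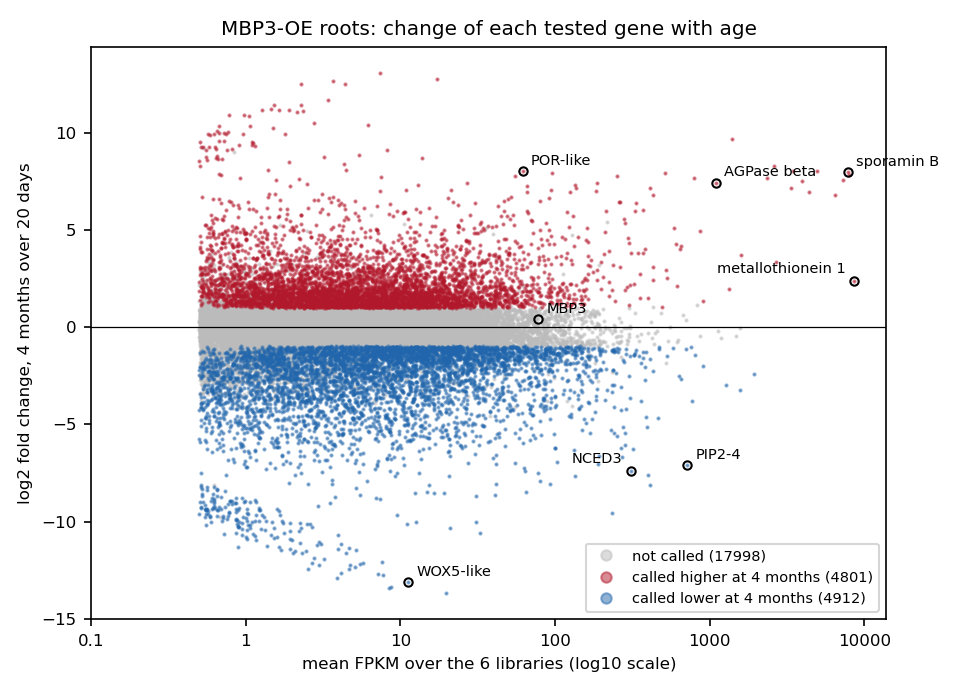
Each point is 1 of the 27711 tested genes, with its mean FPKM over the 6 MBP3-OE libraries on a log10 x axis and its log2 fold change at 4 months over 20 days on the y axis; 4801 genes called higher are red, 4912 called lower are blue. Points near 10 and -10 at low FPKM are mostly genes without a count at 1 age, whose fitted fold change depends on the prior count, and the named genes are circled.

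The intermediate age lay between the 2 ages for most called genes. The mean of the 1-month libraries fell between those of 20 days and 4 months for 3963 of the 4801 genes called higher and for 4222 of the 4912 called lower. These genes were selected for a distance between the 2 ages, which by itself makes a mean in between more likely. The same share over all tested genes was not counted. The median share of the log2(FPKM + 1) change that was present at 1 month was 55.0% for the genes called higher and 38.8% for those called lower. The WT libraries, which share no sample with this comparison, gave a median log2 ratio of FPKM + 1 at 4 months over 20 days of 1.27 for the genes called higher in MBP3-OE and -1.49 for those called lower. Their ratio lay above the WT median of all tested genes for 4572 of the former (95.2%) and below it for 4621 of the latter (94.1%). A direct test of the difference in change between MBP3-OE and WT called 0 genes (0.0% of 27711), with a smallest adjusted p of 0.054 by edgeR's quasi-likelihood test. At an unadjusted p under 0.05 and a log2 difference of at least 1 it gave 1282 genes with a higher and 1485 with a lower change in MBP3-OE, and DESeq2 called 734. WT has 1 library per age, so the spread of MBP3-OE stood in for its own.

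Storage protein genes made up the most abundant part of the 4-month root. Of 24 tested sporamin genes 20 were called higher, 0 lower, and their median log2 fold change was 7.59. All lie on linkage group 11. Gene g46662 (sporamin B), 1 of the most abundant, read 86.2, 117 and 27.5 FPKM at 20 days and 18265, 9395 and 19126 FPKM at 4 months (log2 fold change 7.96, SE 0.79, adjusted p = 0.00066). Gene g46653 read 103, 108 and 43.3 FPKM and then 19850, 9259 and 18115 FPKM (7.83, SE 0.67, adjusted p = 0.00046). For both genes 20-day library 8 was the lowest of its age and 4-month library 3 was the lowest of its own. Sporamin genes belong to 1 family and may share sequence, so that reads may be split between them. Not every copy followed the pattern. Sporamin A gene g46675 read 131, 185 and 151 FPKM at 20 days and 9.57, 282 and 315 FPKM at 4 months, where only library 2 lay below the younger roots (adjusted p = 0.65, and called higher without that library). Gene g46881 behaved likewise, with 17.6, 34.1 and 29.9 FPKM and then 3.05, 131 and 133 FPKM (adjusted p = 0.18).

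The largest rise among informatively described genes averaging 10 FPKM or more belonged to g46674, annotated as a LINE-type retrotransposon (linkage group 11, 38979264 to 38996651). It read 4.17, 5.03 and 3.49 FPKM at 20 days and 3967, 1402 and 3020 FPKM at 4 months (log2 fold change 9.67, SE 0.69, adjusted p = 0.00033). The locus lies within the row of sporamin genes, between g46673 (sporamin B, starting at 38952421) and g46675 (starting at 39003046), and whether its counts come from a sporamin transcript was not tested. Outside storage proteins, g25498, annotated as omega-hydroxypalmitate O-feruloyl transferase, an enzyme of suberin synthesis, read 0.164, 0.0733 and 0 FPKM and then 21.2, 16.6 and 45.4 FPKM (8.70, SE 0.94, adjusted p = 0.00084).

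Starch synthesis rose as a group. Of 18 tested genes 15 were called higher, 0 lower, with a median log2 fold change of 2.12, and their summed level went from 156, 133 and 106 FPKM to 5969, 2697 and 2964 FPKM. ADP-glucose pyrophosphorylase makes the sugar nucleotide from which starch is built. Its beta subunit gene g59752 read 21.6, 15.3 and 10.8 FPKM at 20 days and 4195, 1104 and 1221 FPKM at 4 months (7.43, SE 0.82, adjusted p = 0.00091), highest in library 2. Granule-bound starch synthase I (g39231), which makes amylose, read 49.6, 42.3 and 26.7 FPKM and then 1109, 1102 and 1188 FPKM (5.11, SE 0.34, adjusted p = 0.00028). Its 3 older libraries were closer to each other than its 3 younger ones in proportion. Starch branching enzymes I (g51137) and II (g25144), which form amylopectin branches, had log2 fold changes of 4.04 and 3.09. The 3 members not called were g55556, described as inactive (-2.12, adjusted p = 0.057), g30079 and g60496, and without 4-month library 8 the first was called lower.

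Starch breakdown split into 2 sets. Of 33 tested genes 12 were called higher and 4 lower, with a median of 0.71. Glucan water dikinases, which phosphorylate starch, phosphoglucan phosphatases and isoamylases, which debranch it, were among those that rose. The isoamylase g7416 went from 0.663, 0.408 and 0.608 FPKM to 8.08, 9.92 and 8.25 FPKM. Beta-amylase 1 (g42739), which frees maltose, went the other way, from 612, 724 and 831 FPKM to 75.1, 218 and 107 FPKM (-2.24, SE 0.38, adjusted p = 0.0038). Gene g54671, another beta-amylase, rose from 5.71, 5.32 and 7.04 FPKM to 45.2, 40.1 and 46.8 FPKM. The alpha-amylase SPAMY gene g59297 read 5.05, 71.6 and 23.6 FPKM at 4 months against 42.2 to 43.7 FPKM at 20 days, so that the older range enclosed the younger one (adjusted p = 0.83). A pair of abundant genes fell outside the list because of how their descriptions are worded. The beta-amylase g13691 read 14.0, 16.3 and 9.82 FPKM at 20 days and 686, 494 and 994 FPKM at 4 months (6.03, SE 0.45, adjusted p = 0.00034), opposite to g42739. The plastid alpha-1,4 glucan phosphorylase g1272 read 1.92, 4.08 and 2.42 FPKM and then 764, 260 and 478 FPKM (7.77, SE 0.68, adjusted p = 0.00048). Neither gene's ages overlapped.

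Genes of sugar handling moved in both directions. Among 30 genes of sucrose cleavage 3 were called higher, 9 lower and 18 neither, and those 3 were also the most abundant of the list. The summed level of the list went from 653, 740 and 663 FPKM to 2200, 1156 and 1412 FPKM, and in WT from 686 to 922 FPKM. Sucrose synthase 3 (g5497), which splits sucrose for starch and wall synthesis, read 26.3, 33.2 and 28.5 FPKM at 20 days and 638, 146 and 104 FPKM at 4 months (3.67, SE 0.78, adjusted p = 0.0094). An invertase inhibitor (g41633), which is not itself a cleaving enzyme, is 1 of those 3 genes and is counted in the sum. It went from 165, 150 and 117 FPKM to 1150, 584 and 959 FPKM, and in WT from 57.2 to 346 FPKM. The rise of the summed level is therefore in part that of the inhibitor. Of 40 sugar transport genes 5 were called higher (3 without 20-day library 8) and 11 lower. Sugar transport protein 13 (g7087) fell from 222, 236 and 249 FPKM to 2.45, 9.71 and 13.9 FPKM (-4.55, SE 0.60, adjusted p = 0.0016), and the sucrose transporter g13783 from 338, 298 and 363 FPKM to 21.6, 110 and 56.2 FPKM.

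**Figure D2:**
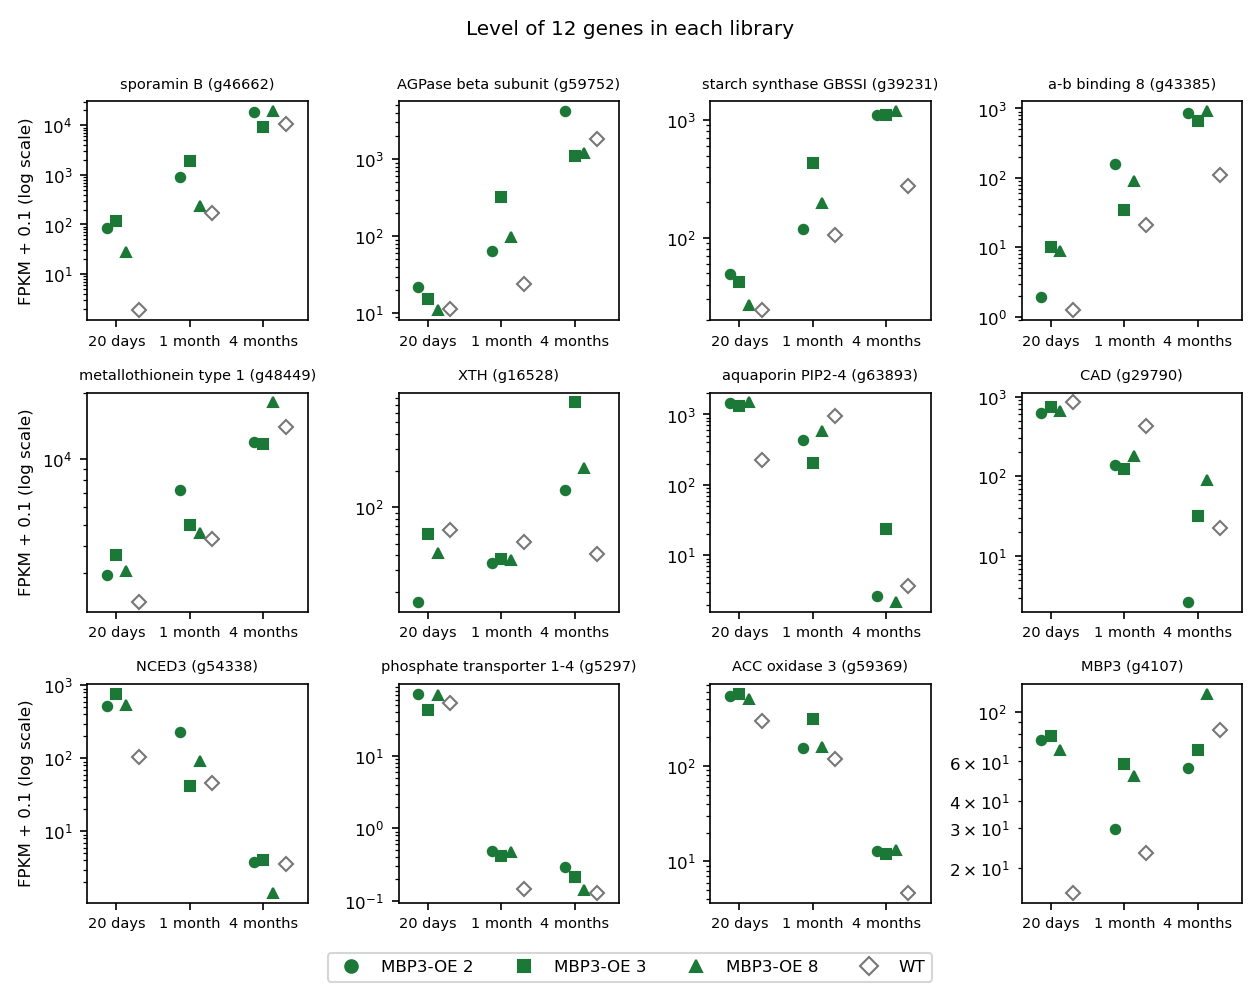
Each panel shows the FPKM + 0.1 of 1 gene (log y axis) in every library at 20 days, 1 month and 4 months (x axis), with circles, squares and triangles for MBP3-OE libraries 2, 3 and 8 and open diamonds for the single WT library of each age. Sporamin B rose from at most 117 to at least 9395 FPKM and aquaporin PIP2-4 fell from at least 1335 to at most 23.5 FPKM in MBP3-OE, whereas the MBP3 values of the 2 ages overlapped.

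Genes of photosynthesis were higher in each of the 3 older libraries. Of 49 tested photosystem and light-harvesting genes 46 were called higher, 0 lower, with a median log2 fold change of 4.98. The light-harvesting gene g37391 read 0.28, 9.0 and 5.28 FPKM at 20 days and 487, 1008 and 1581 FPKM at 4 months (7.93, SE 1.31, adjusted p = 0.0035). Chlorophyll a-b binding protein 8 (g43385) read 1.81, 9.93 and 8.72 FPKM and then 874, 663 and 912 FPKM. Both were lowest in library 2 at 20 days. Enzymes that make chlorophyll showed the same direction, 16 of 23 higher and 1 lower, in a list drawn up after values were seen, as were those for the Calvin cycle (15 of 18 higher, 2 lower), which fixes carbon dioxide. Protochlorophyllide reductase (g297), which catalyses the step of chlorophyll synthesis that needs light, read 0.134, 0.505 and 0.976 FPKM and then 75.2, 130 and 164 FPKM (8.02, SE 0.77, adjusted p = 0.00061). Phosphoribulokinase (g60730) read 0.149, 0.742 and 0.853 FPKM and then 113, 95.0 and 122 FPKM (7.78), and chloroplastic aldolase 1 (g29379) rose from 0.602, 1.22 and 0.903 FPKM to 203, 194 and 171 FPKM (7.94).

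WT values stood lower for several of these genes at 4 months, at 20.0 FPKM for g37391, 16.5 FPKM for g297, 15.7 FPKM for g60730 and 7.83 FPKM for g29379. The test of the difference in change gave adjusted p from 0.46 to 0.91 for these 4 genes, so that no difference between the genotypes was shown. It rests on 1 WT library per age and cannot exclude one. The photosystem and light-harvesting list summed to 5239, 7197 and 10565 FPKM in MBP3-OE at 4 months and to 944 FPKM in WT. At 20 days it summed to 164, 322 and 292 FPKM in MBP3-OE and to 158 FPKM in WT. The difference between these sums was not tested. The summed FPKM of the Calvin cycle enzymes was 1193, 975 and 1051 in the MBP3-OE libraries of 4 months and 422 in that of WT, after 482, 467 and 525 and 418 at 20 days. The KEGG pathway of photosynthesis had 48 of 59 tested genes called higher and 4 lower, its antenna proteins 19 of 20 higher and 0 lower, and porphyrin metabolism 38 of 80 higher and 7 lower. By GO annotation 49 of 67 plastoglobule genes were higher and 1 was lower.

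Ribosomal protein genes divided by the ribosome they serve. Of all 327 tested, 43 were called higher and 152 lower. Split by description after the values were seen, 146 of 257 cytosolic ribosomal protein genes (40S and 60S) were called lower and 4 higher, with a median log2 fold change of -1.09, and 39 of 54 genes of the 30S and 50S subunits of plastids and mitochondria were called higher and 2 lower, with a median of 1.68. The cytosolic genes summed to 34553, 34047 and 32193 FPKM at 20 days and 10197, 15189 and 15891 FPKM at 4 months. Library 2 was the lowest of the older libraries, and without it 114 of the cytosolic genes were called lower. The 40S ribosomal protein S18 gene g13302 read 501, 515 and 463 FPKM and then 108, 186 and 202 FPKM (-1.34, SE 0.24, adjusted p = 0.0048). The chloroplastic 50S protein L27 gene g64072 read 10.4, 14.7 and 12.1 FPKM and then 107, 73.8 and 116 FPKM (3.27, SE 0.30, adjusted p = 0.00052). WT showed the same order, its cytosolic genes going from 34278 to 15119 FPKM in sum and its organelle genes from 306 to 1409 FPKM.

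Water and mineral uptake genes were among the abundant transcripts of the young root that fell. Of 31 aquaporin genes, which form water channels, 14 were called lower and 6 higher. Aquaporin PIP2-4 (g63893), in the plasma membrane, read 1443, 1335 and 1480 FPKM at 20 days and 2.54, 23.5 and 2.10 FPKM at 4 months (-7.10, SE 1.08, adjusted p = 0.0026). Gene g20353 (PIP1-2), of the same membrane, went from 615, 584 and 695 FPKM to 2.14, 14.2 and 5.78 FPKM. For g63893 and g20353 the highest of the older libraries was library 3. Other aquaporins rose, such as those of the tonoplast g58060 (TIP1-1-like), from 80.2, 98.5 and 83.5 FPKM to 375, 259 and 445 FPKM (2.31, SE 0.30, adjusted p = 0.0015), and g10331 (TIP1-1), from 3.18, 10.6 and 11.5 FPKM to 96.7, 135 and 312 FPKM. In a list drawn up after values were seen, 9 of 13 plasma membrane aquaporins were called lower and 3 higher, and their sum went from 4992 to 5951 FPKM over the younger libraries to 1311, 1458 and 1334 FPKM. WT read 1525 FPKM of the same genes at 20 days, below each MBP3-OE library, and 1776 FPKM at 4 months.

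Phosphate uptake had 18 of 44 genes lower and 6 higher. The summed level of the list went from 1774, 1343 and 1448 FPKM to 745, 1233 and 1246 FPKM. In WT, with 1 library per age, it went the other way, from 1669 to 2235 FPKM. The phosphate transporter 1-4 gene g5297 read 72.6, 42.8 and 69.4 FPKM and then 0.192, 0.114 and 0.0415 FPKM (-8.69, SE 0.56, adjusted p = 0.00027), and its relative g8296 went from 164, 144 and 166 FPKM to 1.79, 15.2 and 13.4 FPKM. Purple acid phosphatase 1 (g38857), which frees phosphate from organic compounds, rose from 150, 141 and 181 FPKM to 432, 789 and 892 FPKM (2.40, SE 0.31, adjusted p = 0.0015). In WT it rose from 56.8 to 1828 FPKM, and the interaction test of edgeR gave adjusted p = 0.24. Nitrogen uptake and assimilation had 13 of 38 genes lower and 7 higher, and 20 lower without 4-month library 2. Nitrite reductase (g59680) read 93.1, 86.4 and 72.1 FPKM and then 3.82, 11.7 and 4.90 FPKM (-3.42, SE 0.39, adjusted p = 0.00097). Outside the list, the transporter g59390 of the NRT1/PTR family went from 65.2, 48.1 and 72.7 FPKM to 0, 0.10 and 0.039 FPKM (-10.02, SE 0.74, adjusted p = 0.00034).

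Among cell wall genes the calls differed by family. None of the 26 tested expansins, which loosen walls, was called higher (2 were without 4-month library 3), and 12 were called lower, with a median of -1.64. The expansin-A2-like gene g3926 fell from 78.3, 37.9 and 64.7 FPKM to 0.28, 0.642 and 0.716 FPKM (-6.53, SE 0.44, adjusted p = 0.00028), and expansin-like 1 (g59839) from 92.3, 162 and 162 FPKM to 10.2, 17.2 and 15.4 FPKM (-3.05, SE 0.31, adjusted p = 0.00067). The expansin-A4-like gene g4923 was called lower (-1.08), but not without 20-day library 3 (-0.95) or 4-month library 3 (-0.92). Xyloglucan endotransglucosylase/hydrolases, which cut and rejoin the hemicellulose xyloglucan, were divided, 8 of 26 higher and 7 lower. On log2(FPKM + 1) with limma 12 were lower. The most abundant of them, g16528, read 16.5, 59.8 and 41.4 FPKM and then 137, 729 and 208 FPKM (3.35, SE 0.73, adjusted p = 0.010). The highest value was that of library 3 at both ages. Pectin enzymes had 23 of 83 genes lower (14 without 20-day library 8) and 12 higher.

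Cellulose synthases had 19 of 38 genes lower and 1 higher (2 without 20-day library 3 and 4 without 4-month library 8), and they parted by subunit type. In a division made after the values were seen, each of the 5 genes for subunits 4, 7 and 8, which build secondary walls, was called lower, with a median of -4.23, while 2 of the 17 genes for subunits 1, 2, 3, 5 and 6, known from primary walls, were called lower, 0 higher, with a median of 0.52. Without 4-month library 3 the latter had 4 lower, without library 8 of that age 3 higher and 1 lower, without 20-day library 3 1 of each, and without 20-day library 2 or 8 1 lower. A subunit 7 gene, g47134, read 8.16, 15.4 and 10.7 FPKM and then 0, 0.189 and 0.142 FPKM (-6.46, SE 0.89, adjusted p = 0.0019). The subunit 1 gene g19658 read 43.3, 52.5 and 49.7 FPKM and then 68.7, 71.3 and 44.5 FPKM (0.59, SE 0.24, adjusted p = 0.086), with overlapping ages. Of cellulose synthase-like genes, a family that makes other wall polymers, 12 of 16 were lower (8 without 20-day library 8), and g53956 (protein E6) was the 1 that rose, from 15, 10.4 and 12.8 FPKM to 49.0, 41.5 and 40.7 FPKM (2.05, SE 0.22, adjusted p = 0.00082).

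Of 109 lignin and phenylpropanoid genes 48 were called lower, 9 higher and 52 neither, with a median of -1.56. Without 20-day library 3 or 8 the number called lower was 25 or 26. Their summed level went from 5289, 5996 and 5876 FPKM to 1049, 2058 and 1698 FPKM. Phenylalanine ammonia-lyase, the entry enzyme, summed to 1253, 1428 and 1624 FPKM over 12 genes at 20 days and to 32.4, 465 and 139 FPKM at 4 months. Library 2 was the lowest and library 3 the highest of the older roots. Of these 12 genes, a list drawn up after values were seen, 9 were called lower. Without any 1 of the 20-day libraries 3 were, and without 4-month library 8 it was 2. The cinnamyl alcohol dehydrogenase gene g29790, for the last step to the lignin monomers, read 630, 743 and 658 FPKM and then 2.59, 31.7 and 89.0 FPKM (-3.82, SE 1.06, adjusted p = 0.025). The groups did not overlap, but the adjusted p was 0.056 to 0.062 without any 1 of the 20-day libraries and 0.070 without 4-month library 3. Caffeic acid O-methyltransferase g46588 went from 235, 189 and 205 FPKM to 5.71, 13.9 and 30 FPKM (-3.43, SE 0.56, adjusted p = 0.0035). Caffeoyl-CoA O-methyltransferase 5 (g43253) remained abundant at 381, 164 and 255 FPKM after 565, 654 and 596 FPKM (adjusted p = 0.095, and 0.011 without 4-month library 2).

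Related groups pointed the same way in part. Of 46 class III peroxidases 14 were lower and 4 higher, and 23 were lower without 4-month library 3. The swpa4 peroxidase g34468 fell from 178, 170 and 117 FPKM to 3.51, 24.8 and 23.8 FPKM (-2.95, SE 0.64, adjusted p = 0.010), whereas peroxidase 42 (g59329) rose from 11.5, 25.0 and 16.2 FPKM to 208, 325 and 400 FPKM (4.37, SE 0.41, adjusted p = 0.00055). The list of Casparian strip and suberin genes, named for barriers that seal root cell layers, had 20 of 68 lower and 9 higher. The 20 became 9 to 12 when any 1 of the 20-day libraries or 4-month library 8 was left out. Its 3 most abundant members are described only as CASP-like. The KEGG pathway of cutin, suberine and wax had 12 of 43 genes lower and 8 higher. Its summed level went up, from 426, 414 and 513 FPKM to 535, 1007 and 1085 FPKM. By KEGG, flavonoid biosynthesis had 46 of 102 genes lower and 8 higher, and stilbenoid biosynthesis 28 of 73 lower and 4 higher. The leucoanthocyanidin dioxygenase-like gene g58862, of the anthocyanin branch, went from 813, 726 and 937 FPKM to 0.764, 2.20 and 4.66 FPKM (-8.11, SE 0.76, adjusted p = 0.00056).

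**Figure D3:**
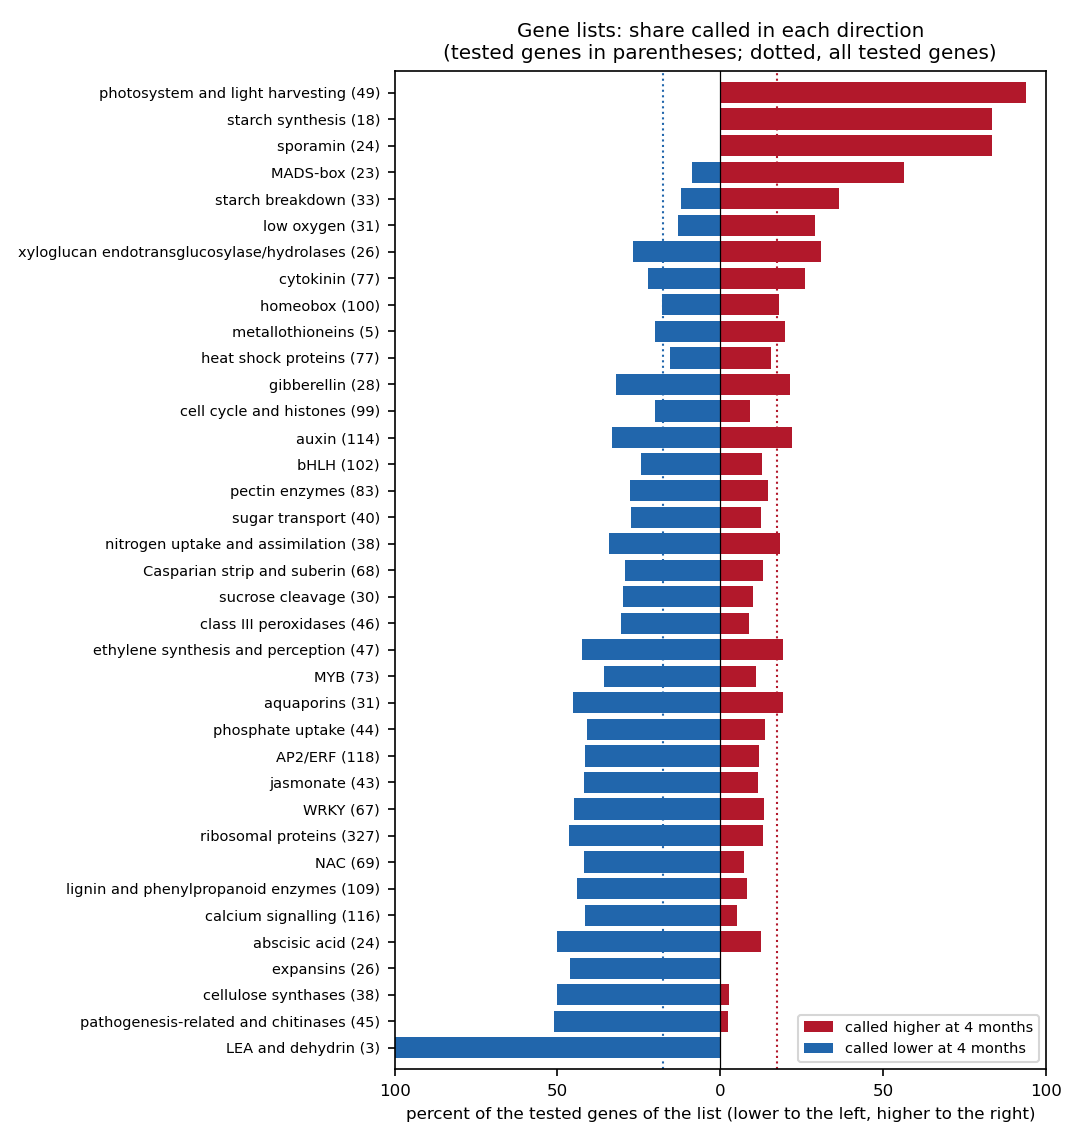
Bars give, for each of the 37 gene lists, the percent of its tested genes that were called higher at 4 months (red, to the right) or lower (blue, to the left) in MBP3-OE, with the number of tested genes in parentheses. Dotted lines mark the shares over all tested genes, 17.3% higher and 17.7% lower; photosystem genes, starch synthesis and sporamin lie at the top and pathogenesis-related genes, cellulose synthases and expansins near the bottom.

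Defence and stress transcripts of the young root were lower in many cases. Of 45 pathogenesis-related and chitinase genes 23 were called lower and 1 higher (0 without 20-day library 3 or 8 or 4-month library 8), and without 1 of the 20-day libraries 14 or 15 were called lower. STH-2-like protein g8243 fell from 149, 166 and 175 FPKM to 1.14, 3.54 and 15.8 FPKM (-4.34, SE 0.91, adjusted p = 0.0086). Calcium signalling had 48 of 116 genes lower and 6 higher. Calmodulin-7 (g24687), a calcium sensor, read 887, 1299 and 1107 FPKM and then 113, 226 and 149 FPKM (-2.54, SE 0.29, adjusted p = 0.00099). All 3 genes for late embryogenesis abundant proteins and dehydrins, which protect cells during water loss, were lower (1 of them without 20-day library 3 or 8). Dehydrin g58752 read 633, 1110 and 945 FPKM and then 11.6, 63.9 and 19.1 FPKM (-4.66, SE 0.65, adjusted p = 0.0019). A Kunitz-type trypsin inhibitor (g16356) went from 1291, 1640 and 1408 FPKM to 39.7, 59.2 and 164 FPKM, in the opposite direction to sporamin. Heat shock proteins had 12 of 77 higher and 12 lower, shares below those of all tested genes, although 20 were lower on log2(FPKM + 1) with limma.

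Resistance gene homologs showed another pattern. In a list drawn up after values were seen, 104 of 292 tested homologs of late blight resistance protein, which are intracellular immune receptors, were called higher (35.6%) and 17 lower (5.82%). Without 20-day library 3 or 8 there were 68 or 67 higher and 8 lower, without 20-day library 2 there were 9 lower, and without 4-month library 3 there were 30 lower. With limma on log2(FPKM + 1) 37 were higher and 16 lower, and the median was 0.22. Their median log2 fold change was 0.63 and their levels were low, with a median of 1.75 FPKM against 5.35 FPKM over all tested genes. Homologs share sequence, and reads may be split between them. Gene g19576 (R1B-14) read 13.6, 10.7 and 7.91 FPKM and then 36.2, 31.6 and 23.6 FPKM (1.78, SE 0.27, adjusted p = 0.0027). Gene g26140 (R1A-10) was an exception, falling from 85.3, 43.3 and 49.7 FPKM to 1.87, 1.47 and 1.3 FPKM (-4.98, SE 0.36, adjusted p = 0.00033). RPP13-like proteins had 23 of 54 higher and 1 lower (11 or 10 higher without 20-day library 3 or 8, and 3 higher and 0 lower with limma on log2(FPKM + 1), where the median was 0.48). Gene g54661 rose from 6.46, 9.77 and 5.66 FPKM to 101, 37.6 and 59.6 FPKM. The KEGG pathway of plant-pathogen interaction, which holds many of them, had 185 of 727 genes higher and 126 lower.

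Retroelement annotations behaved differently from these. Of 39 tested genes described as Gag-Pol, the polyprotein of retrotransposons, 37 were called lower and 2 higher, again in a list drawn up after values were seen. Over the fits without 1 library 36 or 37 were lower. The median log2 fold change was -5.51, and the genes lie on 14 linkage groups. Gene g31302 read 109, 57.0 and 80.5 FPKM and then 0.242, 3.05 and 1.48 FPKM (-5.51, SE 0.84, adjusted p = 0.0027), and g29832 read 83.3, 40.5 and 58.7 FPKM and then 0.187, 2.38 and 0.752 FPKM (-5.60, SE 0.86, adjusted p = 0.0027). At 20 days library 2 was about double library 3 for most of them (median ratio 2.03), and at 4 months library 2 was the lowest for both genes named. Copies of an element share sequence, so these genes may share reads and are not independent observations. Summed over the list, the level went from 1036, 584 and 782 FPKM to 20.9, 56.5 and 45.1 FPKM, and in WT from 1008 to 76.3 FPKM. These genes belong to the KEGG RNA polymerase pathway in part, of which 43 of 120 genes were lower and 7 higher.

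**Figure D4:**
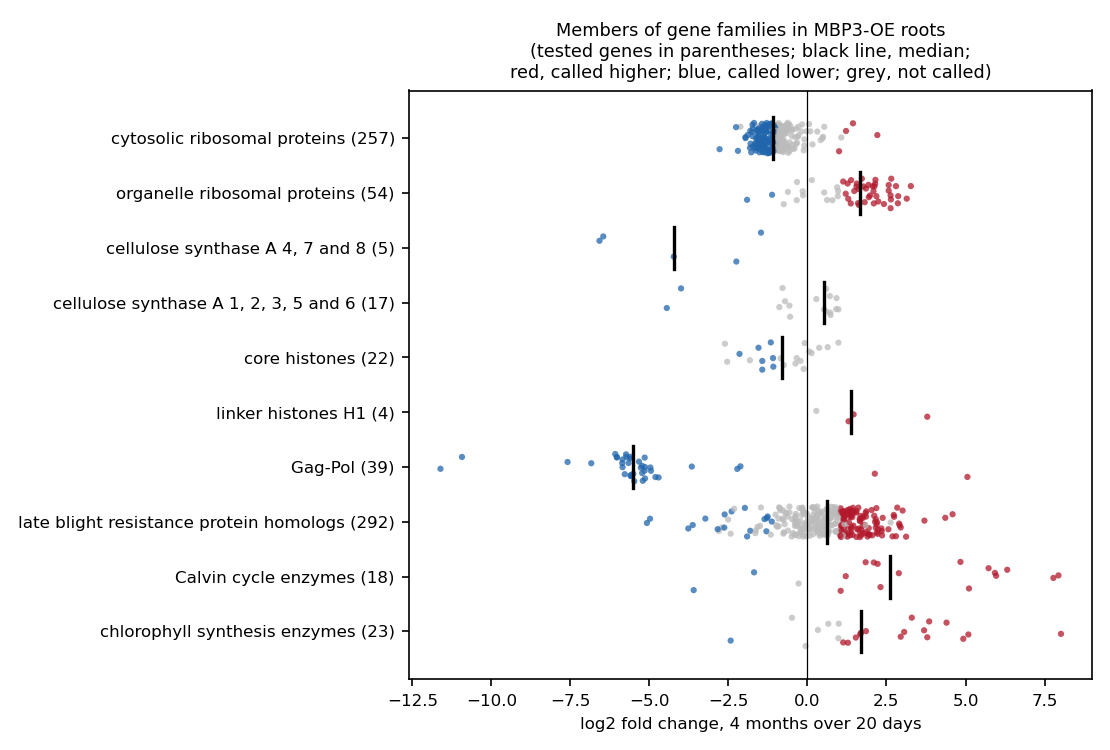
Each point is a tested gene of the family on the y axis, at its log2 fold change at 4 months over 20 days in MBP3-OE (x axis); red points were called higher, blue points lower and grey points neither, and the black line is the median. Cytosolic ribosomal proteins (median -1.09) lie left of organelle ribosomal proteins (1.68), cellulose synthase subunits 4, 7 and 8 (-4.23) left of the other subunits (0.52), and Gag-Pol genes (-5.51) far left of the late blight resistance homologs (0.63).

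Hormone genes changed in both directions. Abscisic acid had 12 of 24 genes lower and 3 higher (1 without 20-day library 3). NCED3 (g54338), the rate-limiting enzyme of abscisic acid synthesis, read 528, 770 and 542 FPKM and then 3.71, 4.01 and 1.34 FPKM (-7.42, SE 0.56, adjusted p = 0.00035). Ethylene synthesis and perception had 20 of 47 lower and 9 higher. The ACC oxidase 3 gene g59369, for the last step to ethylene, read 542, 574 and 507 FPKM and then 12.9, 12 and 13.2 FPKM (-5.15, SE 0.23, adjusted p = 0.00015), with little spread at either age. Another ACC oxidase gene, g25912, read 3.03, 2.17 and 2.38 FPKM and then 277, 18.4 and 17.1 FPKM (5.74, SE 1.32, adjusted p = 0.012), highest by far in library 2. Its adjusted p was 0.053 without 20-day library 3 or 8. Jasmonate had 18 of 43 lower (9 without 20-day library 3 or 8) and 5 higher.

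Auxin had 38 of 114 genes lower (23 or 24 without 20-day library 3 or 8) and 25 higher. Auxin response factor 11 (g32239), a transcription factor, rose from 8.55, 9.62 and 9.21 FPKM to 104, 62.7 and 72.5 FPKM (3.40, SE 0.31, adjusted p = 0.00051), and g9816, annotated as auxin-induced in root cultures 12, fell from 243, 172 and 176 FPKM to 0.368, 1.70 and 4.55 FPKM (-6.24, SE 0.86, adjusted p = 0.0019). The cytokinin list had 20 of 77 genes higher and 17 lower, and this order turned on log2(FPKM + 1) with limma. Its 3 most abundant members, g31109 (PRR73), g871 (APRR5) and g30584 (APRR7), are described as response regulator-like, and none was called. Whether they act in the cytokinin response was not tested. Cytokinin dehydrogenase 6 (g8886), which breaks cytokinin down, fell from 30.3, 21.9 and 22.1 FPKM to 0.125, 0.0229 and 0 FPKM (-8.56, SE 0.83, adjusted p = 0.00061). Among 28 gibberellin genes 9 were lower and 6 higher. The receptor g5433 (GID1B) went from 116, 120 and 83.9 FPKM to 11.4, 12.4 and 8.72 FPKM (-3.05, SE 0.23, adjusted p = 0.00035), while GID1C (g23726) read 136, 106 and 115 FPKM at 4 months after 81.4, 60.6 and 74.4 FPKM (0.99, adjusted p = 0.012, just short of the fold threshold, and called at 1.02 to 1.13 without 20-day library 2 or 8 or 4-month library 3 or 8).

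In 5 transcription factor families more genes were called lower than higher. NAC genes had 29 of 69 lower (19 without 20-day library 8) and 5 higher (3 without 20-day library 2, 8 without 4-month library 2), WRKY genes 30 of 67 lower and 9 higher, AP2/ERF genes 49 of 118 lower and 14 higher, and MYB genes 26 of 73 lower and 8 higher (5 without 20-day library 8). Basic helix-loop-helix genes had 25 of 102 lower (15 without 20-day library 3 or 8) and 13 higher (8 without 20-day library 2). NAC72 (g288) fell from 428, 320 and 375 FPKM to 0.855, 2.6 and 3.74 FPKM (-7.06, SE 0.58, adjusted p = 0.00040), and WRKY40 (g51746) from 252, 219 and 221 FPKM to 3.34, 24.6 and 20.5 FPKM (-3.64, SE 0.64, adjusted p = 0.0045). The MYB340-like gene g17691 had 63.6, 75.4 and 57.7 FPKM at 20 days and 0, 0.0895 and 0 FPKM at 4 months (-10.59, SE 0.71, adjusted p = 0.00028). MADS-box genes, to which flowering and root regulators belong, had 13 of 23 higher and 2 lower. Neither of those 2 was called when any 1 of the 20-day libraries was left out, and 1 was without 4-month library 8. The most abundant of the list, g38619, read 12.6, 15 and 14.7 FPKM and then 105, 38.8 and 59.9 FPKM (2.57, SE 0.43, adjusted p = 0.0038). AGL21 (g1670) read 5.32, 6.85 and 4.21 FPKM and then 14.8, 19.1 and 24.5 FPKM (2.07, SE 0.29, adjusted p = 0.0020). The MBP3 genes g4107 and g4109, described only as MBP3, lie outside this list. In mean FPKM g4107 was more abundant than g38619 at both ages.

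Homeobox genes were even, 18 of 100 higher and 18 lower, close to the shares over all tested genes (17.3% and 17.7%). The WUSCHEL-related homeobox 5-like gene g20352 has an Arabidopsis relative that marks the quiescent centre of the root tip. It read 22.0, 21.3 and 23.7 FPKM at 20 days and had no count in any 4-month library. Against a floor of 3 counts over the 3 older libraries this is 953-fold lower. As the deposited counts may not be single reads, that fold is no firm lower bound. In the young root the 3 values lay within a narrow range. The class-I knotted1-like gene IBKN2 (g41979), of a family that acts in meristems, rose from 5.89, 9.82 and 9.44 FPKM to 72.2, 68.0 and 64.0 FPKM (3.27, SE 0.28, adjusted p = 0.00043), and g63000 (ATHB-15-like) fell from 99.2, 75.6 and 86.0 FPKM to 5.54, 4.6 and 5.92 FPKM. A mannose/glucose-specific lectin gene (g13087) likewise had no count at 4 months after 47.8, 54.3 and 15.5 FPKM, 1419-fold lower against the same floor and with the same limit. Further large falls were those of the CEN-like gene g20567 (16.6, 26.0 and 24.0 FPKM to 0, 0 and 0.0488 FPKM) and of inorganic pyrophosphatase 2 (g55240), which went from at least 393 FPKM in each younger library to 0.26, 0.18 and 1.09 FPKM (-9.57, SE 0.83, adjusted p = 0.00046).

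Cell cycle and histone genes had 20 of 99 lower (20.2%) and 9 higher (9.09%). Over all tested genes the shares were 17.7% lower and 17.3% higher. Without 1 of the 20-day libraries 8 to 11 were lower. Linker histones H1, which bind between nucleosomes, were on the higher side, 3 of 4 called higher and 0 lower, and core histones were not, with 0 of 22 higher and 7 lower, in lists divided after the values were seen. The 7 became 3 without 20-day library 3 or 8 and 4 without 4-month library 3. Histone H1 gene g405 read 39.8, 64.2 and 46.8 FPKM and then 945, 296 and 454 FPKM (3.79, SE 0.55, adjusted p = 0.0023). Of 5 metallothionein genes 1 was higher and 1 lower, and without 4-month library 2 or 3 there were 2 or 3 lower. Metallothionein type 1 (g48449), a small metal-binding protein, was abundant at both ages, with 2925, 3627 and 3068 FPKM and then 11949, 11657 and 18055 FPKM (2.37, SE 0.34, adjusted p = 0.0022). Another metallothionein, g64044, fell from 475, 598 and 471 FPKM to 31.1, 4.89 and 28.1 FPKM (-4.28, SE 0.73, adjusted p = 0.0039).

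Low-oxygen genes had 9 of 31 higher and 4 lower. The summed level of the list went from 627, 622 and 656 FPKM to 3087, 1078 and 1018 FPKM. In WT, with 1 library per age, it went the other way, from 1370 to 618 FPKM. Alcohol dehydrogenases of ethanol fermentation differed between the older libraries. Alcohol dehydrogenase 3 (g42371) read 18.4, 3.73 and 17.2 FPKM at 20 days and 1192, 56.5 and 5.67 FPKM at 4 months. Only libraries 2 and 3 lay above the young roots, and the gene was not called (5.38, SE 1.9, adjusted p = 0.054) unless 4-month library 3 or 8 was left out (adjusted p = 0.044 and 0.024). Alcohol dehydrogenase 1 (g42362) rose from 44.0, 28.2 and 34.4 FPKM to 619, 203 and 102 FPKM (3.44, SE 0.72, adjusted p = 0.0086), in the same order of libraries. The alcohol dehydrogenase-like 2 gene g21290 had the opposite order, with 46.4, 52.7 and 53.3 FPKM and then 209, 229 and 394 FPKM (2.70, SE 0.31, adjusted p = 0.00098). In WT g42371 went from 159 to 2.14 FPKM, g42362 read 88.8 FPKM at both ages and g21290 went from 20.6 to 104 FPKM. The interaction test of edgeR gave adjusted p of 0.44, 0.49 and 0.95 for these genes in turn. Library 2 also held the lowest 4-month value for 3069 of the 4912 genes called lower (62.5%) and the highest for 2216 of the 4801 called higher (46.2%). The same shares over all tested genes were not counted.

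**Figure D5:**
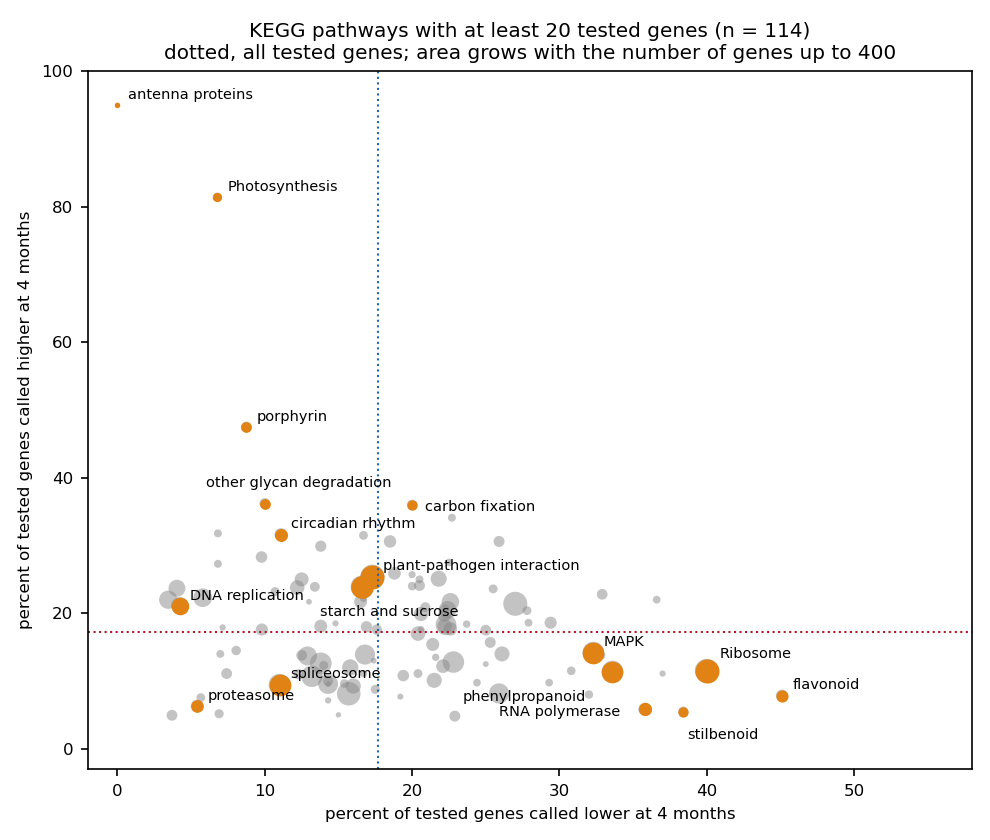
Each point is 1 of 114 KEGG pathways with at least 20 tested genes, placed by the percent of its genes called lower (x axis) and called higher (y axis) at 4 months in MBP3-OE, with an area that grows with its number of genes up to 400. Dotted lines mark 17.7% and 17.3%, the shares over all tested genes; photosynthesis (48 of 59 higher) and its antenna proteins stand at the upper left, and the ribosome and flavonoid pathways at the lower right.

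Over the KEGG pathways of the table, 49 of the 114 with at least 20 tested genes had more genes higher than lower, and 63 had more lower. Carbon fixation had 27 of 75 higher and 15 lower, circadian rhythm 37 of 117 higher and 13 lower, and other glycan degradation 29 of 80 higher and 8 lower. In the circadian set a GIGANTEA-like gene (g42312), of the flowering clock, rose from 11.1, 12.3 and 14.7 FPKM to 68.9, 57.3 and 24.7 FPKM (2.25, SE 0.41, adjusted p = 0.0050), and phytochrome A2 (g22825), a light receptor, from 12.1, 14.0 and 13.1 FPKM to 28.4, 37.6 and 31.5 FPKM. The time of day of sampling is not given in the sources used here. MAPK signalling had 105 of 325 lower and 46 higher, and phenylpropanoid synthesis 109 of 324 lower and 37 higher. The proteasome had 7 of 111 genes higher and 6 lower, and the spliceosome 31 of 328 higher and 36 lower, shares below those of all tested genes in both directions.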

How the data were processed

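RNA from sweetpotato roots was sequenced by the authors in 12 libraries, of which the 6 MBP3-OE libraries of 20 days and 4 months were compared. The submitters' processing notes name cutadapt 1.9, HISAT2 2.0.4, StringTie 1.3.4d, DESeq2 and edgeR. The deposited table gives a count and an FPKM value per gene and library, with descriptions, linkage groups, KEGG pathways and GO terms. The authors' FPKM values are scaled by library and transcript length, not by TMM. The genome build, the strand used in counting and the treatment of reads with several matches are not given in the sources used here.

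The deposited counts were analysed with edgeR 4.0.16 (glmQLFit, glmQLFTest) in R 4.3.3, with TMM scaling, 2 groups and 4 residual degrees of freedom. Genes averaging under 0.5 FPKM were left out. p-values were adjusted by Benjamini-Hochberg over the 27711 genes. The difference from WT was an interaction term in a fit of all 12 libraries. limma 3.58.1 and DESeq2 1.42.0 gave alternatives, as did other scalings, minimum levels, pseudocounts of 1 and 0.1, a replicate block and each library left out. The fit was also run on simulated counts, in which few genes changed and both ages had the same spread. The real data differ in both respects, so that run does not check the fit for these data. Tables were made with pandas 2.3.3 and NumPy 2.4.6 in Python 3.11.15, and plots with Matplotlib 3.10.9.

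Genes were named from the 15 largest rises and falls among called, informatively described genes averaging 10 FPKM or more, from the top 3 of each of 37 lists by mean FPKM, the 10 most abundant genes of each age, and MBP3. Further genes were named after their values were seen, namely g46675, g46881, g25144, g51137, g30079, g55556, g60496, g7416, g54671, g20353, g10331, g58060, g47134, g53956, g46588, g64072, g19576, g26140, g54661, g31302, g29832, g25912, g32239, g41979, g63000, g1670, g64044, g42312, g22825 and g13691. Gene names follow the deposited descriptions, mostly without the ending "-like". Lists match words in the deposited descriptions, upper and lower case as written. Members and lists were chosen with earlier results of these data known, and no test was made of a list.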

Additional observations from a re-analysis of the deposited data

Results flagged for a closer look

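In 4 of the genes named, the single WT library of 4 months differed from that of 20 days in the direction opposite to the change called in MBP3-OE. For the xyloglucan endotransglucosylase/hydrolase g16528 the log2 ratio of FPKM + 1 at 4 months over 20 days was -0.67 in WT, and the gene rose in MBP3-OE. For the ACC oxidase g25912 it was -1.37 in WT against a rise in MBP3-OE. For beta-amylase 1 (g42739) it was 0.05 in WT (233 and then 242 FPKM), which is close to no change, against a fall in MBP3-OE. For the anionic peroxidase swpb3 gene g20424 it was 0.84 in WT, and MBP3-OE went from 131, 124 and 118 FPKM to 6.67, 58.8 and 24.5 FPKM (log2 fold change -1.88, SE 0.62, adjusted p = 0.044 by edgeR). That adjusted p was 0.098 to 0.10 without any 1 of the 20-day libraries and 0.12 without 4-month library 8. The interaction test of edgeR gave adjusted p of 0.30, 0.39, 0.40 and 0.52 for these genes in turn, so that no difference between the genotypes was shown, and WT has no replicate at either age.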

How the results depend on the processing

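The number of genes called higher was 4602 to 5154 under RLE or upper-quartile scaling, without sporamin, with no minimum level, with DESeq2, in a fit of 12 libraries, with a robust spread or at an unadjusted p, and the number called lower was 4734 to 5654. With a mean of at least 5 FPKM, where 14354 genes were tested, 2641 were higher and 2645 lower. With limma on log2(FPKM + 1) 2775 were higher and 5827 lower, and on log2(FPKM + 0.1) 3662 and 6936. When each library was left out in turn, 3770 to 4963 were higher and 3637 to 5443 lower. The difference between MBP3-OE and WT was called for 1 gene with no minimum level, for 734 with DESeq2 and for 0 to 4 when a library was left out; the cause was not tested. With a replicate block 4184 genes were higher and 4743 lower. Libraries with the same number deviated together with correlations of only -0.0122 to 0.0924 over the tested genes. The numbers were not taken to pair the samples, but these correlations cannot exclude a pairing. Of 80 called genes named in the text, 76 were called in the same direction under every alternative that gave a value for them, and none reversed. Sporamin genes have no value with sporamin left out, and some low genes none at a minimum of 5 FPKM. With limma on log2(FPKM + 1), 24 class III peroxidases, 31 Casparian strip and suberin genes and 21 nitrogen genes were lower, and 16 auxin genes and 2 WRKY genes were higher. In lists, 1213 of 1332 counts stayed within 1.5 times. The 3 libraries of an age, the unit of the counts, the missing replicates of WT and shared reads between gene copies limit precision.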
